A study of Arabidopsis thaliana with 6 samples.

Results

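The transcript baseline of the wild-type Arabidopsis thaliana root was described from 3 samples of the accession Col-0, a standard laboratory strain that carries no introduced allele. Of 32833 rows in the deposited table, the 200 with the highest mean over these 3 samples were taken as the most abundant genes, and they are 0.609% of the rows. The series holds 6 root samples, of which the other 3 are from the xal1-2 mutant and were not compared here. Each wild-type (WT) sample is a pool of about 60 plants, taken 8 days after sowing, of whole roots cut free of hypocotyls and cotyledons. The plates stood upright at 22 °C, held Murashige and Skoog salts at 0.2X strength with 1% sucrose, and were lit for 16 h and dark for 8 h of each day. The labels name the 3 samples biological replicates. A pooled whole root mixes every cell type and developmental zone, so a value is an average over them.

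A root is built from concentric layers (epidermis with root hairs, cortex, endodermis, and a central cylinder with xylem and phloem) around a tip that divides. Members of the cabbage order such as Arabidopsis store glucosinolates, sulfur compounds that become toxic when a beta-glucosidase meets them in a broken cell. In the epidermis of young seedlings and in roots, one such enzyme, PYK10, is packed in ER bodies, which are spindle-shaped swellings of the endoplasmic reticulum that need the protein NAI2 to form. Roots also take up water through aquaporins, nitrate and other ions through membrane carriers driven by proton pumps, and they build walls that carry extensins, which are hydroxyproline-rich proteins cross-linked by peroxidases.

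The 3 libraries held 7929009, 7740207 and 8962691 reads assigned to genes, recovered as whole reads from the deposited scaled counts. A single read was 1.29e-05% of the shallowest library and 1.12e-05% of the deepest. Reads were found in all 3 libraries for 20981 genes and in none for 9296. All 200 members are protein-coding genes in the RefSeq annotation. The best placed gene that does not code for protein, AT1G10682, was at rank 1105. A read count grows with transcript length, so ranks and orders by reads compare counts and not levels of transcript. Levels of different genes are given per kilobase of exon, as TPM, each library's length-scaled counts brought to the same total.

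Promoters of 3 members are shown because they carry the short motifs counted further on. They are RefSeq sequence of TAIR10.1, from 250 bases before to 30 after the annotated start, with the gene's sense strand written 5′ to 3′ and the motifs in capitals. The promoter of PYK10 (AT3G09260), the gene with the most reads, lies at chr3:2843752-2844031 on the minus strand, and its capitals mark TATATA and TATAAA, which overlap. The first begins 28 bases before the start. Only copies 50 to 20 bases before the start are marked, and copies further upstream stay in lower case.
PYK10: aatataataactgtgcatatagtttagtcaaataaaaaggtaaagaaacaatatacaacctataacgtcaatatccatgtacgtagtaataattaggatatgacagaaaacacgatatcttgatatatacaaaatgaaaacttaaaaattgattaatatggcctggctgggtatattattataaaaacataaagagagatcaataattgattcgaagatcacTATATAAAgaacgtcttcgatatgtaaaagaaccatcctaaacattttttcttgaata
The other 2 belong to cytosolic ribosomal protein genes, with capitals for site II (TGGGCC or TGGGCT) and for the telo box (AAACCCTA), each on either strand. AT5G20290 encodes ribosomal protein S8e and its window is chr5:6853077-6853356 on the minus strand.
AT5G20290: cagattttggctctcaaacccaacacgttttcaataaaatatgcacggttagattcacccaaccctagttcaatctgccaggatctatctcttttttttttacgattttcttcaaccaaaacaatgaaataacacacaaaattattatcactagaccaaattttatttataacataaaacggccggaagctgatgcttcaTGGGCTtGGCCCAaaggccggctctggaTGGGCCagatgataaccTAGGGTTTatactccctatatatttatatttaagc
AT5G15200 encodes a ribosomal protein of the S4 family and its window is chr5:4936400-4936679 on the minus strand.
AT5G15200: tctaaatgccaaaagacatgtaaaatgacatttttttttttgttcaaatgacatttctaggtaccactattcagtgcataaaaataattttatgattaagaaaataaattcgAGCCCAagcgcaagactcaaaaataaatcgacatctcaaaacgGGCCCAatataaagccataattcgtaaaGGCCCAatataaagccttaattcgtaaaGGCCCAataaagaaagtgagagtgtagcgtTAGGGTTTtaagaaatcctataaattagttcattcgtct

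The 200 members took 23.8% ± 0.775 of the reads assigned to genes (SD, n = 3). The share was 24.3% in replicate 1 (95% exact binomial interval 24.2 to 24.3), 24.1% in replicate 2 (24.1 to 24.2) and 22.9% in replicate 3 (22.8 to 22.9). These intervals cover counting error only, as the reads carry no molecular identifiers, and the gap of replicate 3 from the other two was wider than they are. PYK10 alone took 1.70% ± 0.0641, the first 10 genes 4.78% ± 0.345, the first 20 genes 6.98% ± 0.388 and the first 100 genes 17.2% ± 0.621. Beyond the 200 the reads spread thinly. The first 1000 genes held 45.7% ± 0.930, and 90% of the reads needed 8280 genes in replicate 1, 8347 in replicate 2 and 8649 in replicate 3. The mean scaled count passed 10000 in 58 genes and 1000 in 1693 genes.

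**Figure D1:**
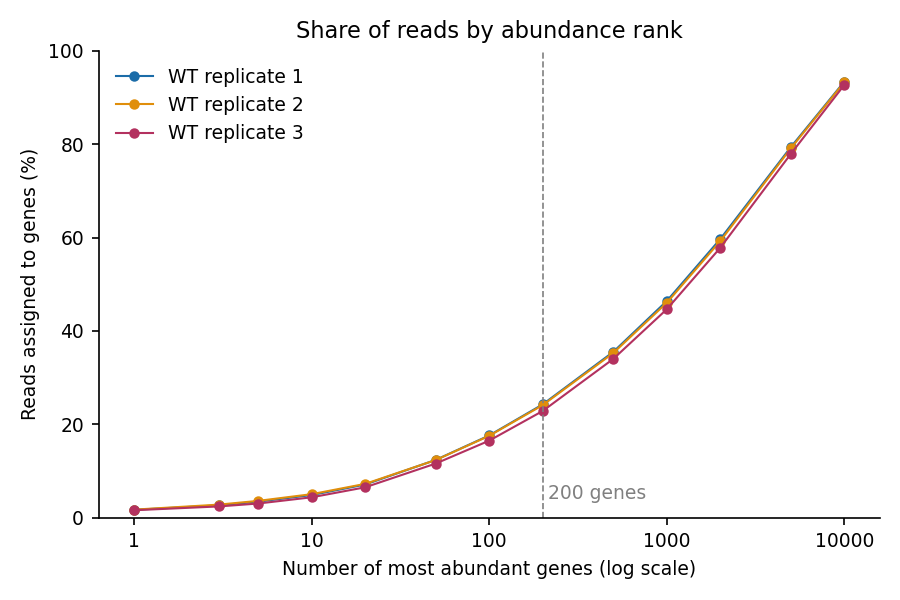
Cumulative share of the reads assigned to genes (%, vertical axis) against the number of most abundant genes, ranked by the WT mean (horizontal axis, log scale), 1 line per WT replicate. The dashed line marks the 200 members, at 24.3%, 24.1% and 22.9% of reads in replicates 1, 2 and 3.

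The edge of the list is not a step. VHA-A3, a subunit of the vacuolar proton pump at rank 198, had a mean of 4442 scaled reads ± 682, AT2G17500, a membrane transporter at rank 199, had 4422 ± 385 and ADC2, an arginine decarboxylase of polyamine synthesis at rank 200, had 4412 ± 226 (SD, n = 3 for each). The laccase gene LAC7 at rank 201 had 4406 ± 738, the HSP90 gene HSP81-3 at rank 202 had 4366 ± 643 and BIP2, a chaperone of the endoplasmic reticulum at rank 203, had 4351 ± 797. The means on either side of the limit differed by less than the spread between replicates of each gene. Ranked without replicate 1, 2 or 3 in turn, 195, 196 and 191 of the 200 stayed on the list.

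The members differed in which replicate was the low one. Replicate 3 was the lowest in 123 of the 200 (61.5%), against 36.3% of the 18231 genes with 10 or more reads in every library, replicate 2 in 47 (23.5%, against 30.7%) and replicate 1 in 30 (15%, against 33.0%). The highest value fell in replicate 1 for 86 (43.0%, against 31.4%), in replicate 2 for 66 (33.0%, against 29.2%) and in replicate 3 for 48 (24.0%, against 39.4%). Genes of the next ranks shared the low replicate 3, with 54.6% of ranks 201 to 1000 lowest there. With library totals in place of the deposited size factors, replicate 3 was the lowest in 108 of the members (54.0%) and in 28.7% of all such genes. Counts by replicate in the classes that follow are on the deposited scaling, and where library totals give another count it stands beside them.

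The members were grouped by known function into 19 named classes and 30 genes of other functions. Of the named classes, that of ER bodies and glucosinolate defence took the most reads, with 10 members and 3.45% ± 0.143. PYK10 alone held 1.70%, and the order rests on classes assigned by hand after the members were seen. By product name this class had 5 members with 1.25% of the reads. Cell wall members, which then took in PYK10, had 3.16% and redox members 2.51%. PYK10 (chromosome 3, 2840477 to 2843781, minus strand, TAIR10.1) had 147819, 149584 and 133442 scaled reads in replicates 1, 2 and 3, a mean of 143615 ± 8854. Replicate 3 was the lowest of the 3 for PYK10, and the highest value was 1.12 times the lowest. Per kilobase PYK10 also ranked first, at 15471 TPM ± 602, and the next gene, GRP9, stood at 5135 TPM ± 1102. NAI2, required for ER bodies to form, was at rank 20 with 17999, 17464 and 14307 scaled reads.

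Several lectins related to PYK10 were on the list as well, and others were not, such as JAL31 at rank 320 and JR1 at rank 269. PBP1 (AT3G16420), a jacalin-type lectin that binds PYK10 in extracts, had 37641, 36545 and 28179 scaled reads and held rank 4 both by reads and by TPM (4406 ± 556). JAL34 had 29307, 26898 and 22058, again lowest in replicate 3, and the lectins JAL33 and JAL22 had means of 13875 ± 808 and 13541 ± 506. NSP1, a nitrile specifier protein that steers glucosinolate breakdown towards nitriles, had 19356, 17796 and 17612. It shares 28.2% of its 50-base words (runs of 50 bases) with other genes, chiefly NSP4, which had a mean of 941. The NSP1 count, and the sum that follows, carry that uncertainty. NSP1, PBP1, JAL33 and JAL34 lie within one stretch of chromosome 3 (5566083 to 5595912, TAIR10.1), and together they took 1.09% ± 0.0950 of the reads. CYP81F4, a cytochrome P450 that modifies indole glucosinolates, was lowest in replicate 1, with 12072, 15901 and 16918. The remaining members were AT2G25450, an oxygenase that hydroxylates glucosinolate side chains (mean 4958 ± 511), and the nitrilase NIT1 (5725 ± 288).

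**Figure D2:**
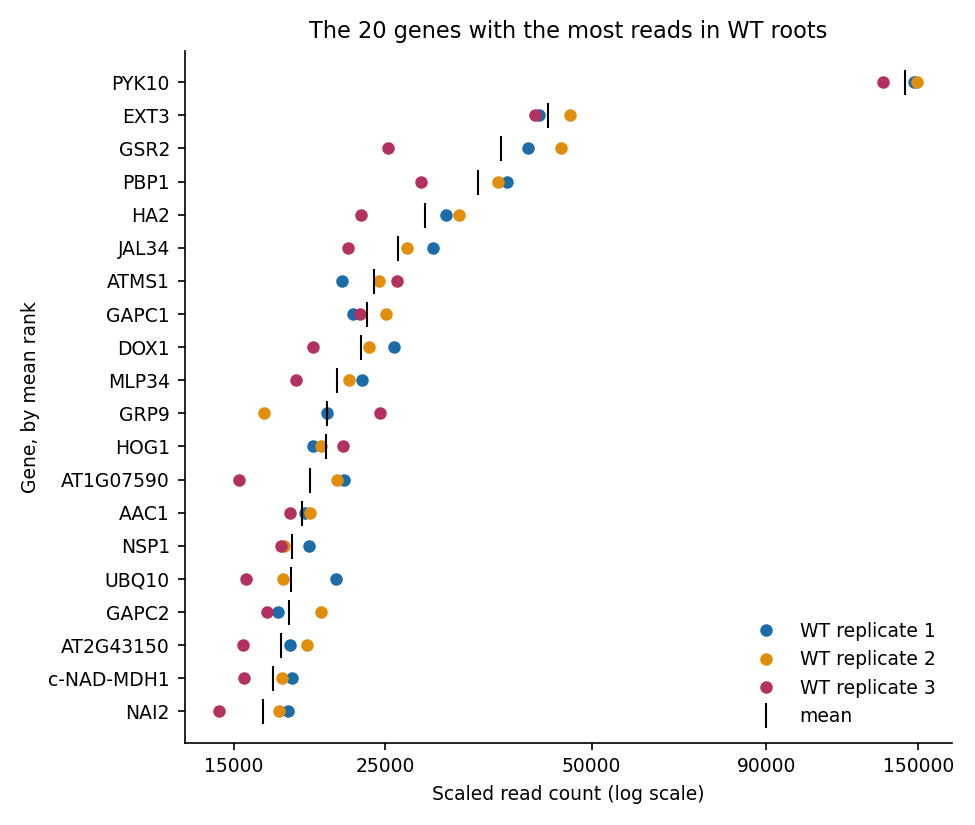
Scaled read count (horizontal axis, log scale) of the 20 genes with the highest WT mean, in rank order from the top, with 1 point per WT replicate and a bar at the mean. PYK10 lies at 133442 to 149584 in the 3 replicates, and EXT3, the next, at 41338 to 46491.

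Cell wall proteins and enzymes made up 10 members with 1.31% ± 0.109 of the reads. EXT3 (AT1G21310, chromosome 1, 7453245 to 7455009, minus strand, TAIR10.1), an extensin that forms a scaffold in the new wall, had 41895, 46491 and 41338 scaled reads and held rank 2 by reads and rank 3 per kilobase (5090 TPM ± 327). AT2G43150, annotated as a proline-rich extensin-like protein, had 18148, 19202 and 15506. EXT4 was nearly level in the 3 replicates, at 5790, 5647 and 5638. The primary-wall cellulose synthases CESA1 (5337 ± 452) and CEV1 (also known as CESA3; 6361 ± 441), the endoglucanase GH9A1 (4781 ± 239) and the chitinase-like POM1 (5533 ± 451) were members too. Of the 10, 9 were lowest in replicate 3, or 7 with library totals, and 8 were highest in replicate 2. Of all members, 61.5% were lowest in replicate 3, or 54.0% with library totals, and 33.0% were highest in replicate 2.

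Peroxidases, glutathione S-transferases and other redox enzymes gave 17 members and 2.24% ± 0.106 of the reads, and all 17 were also among the 200 highest genes per kilobase. Class III peroxidases are secreted enzymes that use hydrogen peroxide to cross-link or loosen the wall, and 9 of them were members, with 1.39%, 1.26% and 1.13% of the reads in replicates 1, 2 and 3. AT3G32980 had 15565, 16330 and 17851 scaled reads, with replicate 3 the highest. In PRXCB replicate 3 was the lowest, with 18842, 16802 and 12220. AT5G64100 (15438, 12929 and 9631) and AT5G64120 (16505, 13716 and 12764) lie close together on chromosome 5 and were both lowest in replicate 3.

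Inside the cell, the ascorbate peroxidase APX1 removes hydrogen peroxide, and its values of 15046, 14404 and 15287 scaled reads lay close together. The glutathione S-transferases, which attach glutathione to reactive compounds, were led by GSTU19 (16036, 17581 and 13917), which held rank 8 per kilobase at 2751 TPM ± 274. GSTF9 had 13762 ± 1208 and its neighbour on chromosome 2, GSTF10, had 8897 ± 353. TRX3, a cytosolic thioredoxin, had 8958 ± 569, and the iron superoxide dismutase FSD1 had 5263 ± 207. Over the whole table, 302 rows had a product name of this kind, and 18 of them (5.96%) were among the 200. That set by name differs from the 17 classed by hand and takes in DOX1, placed below with the lipid genes.

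Carbohydrate and central carbon metabolism gave 18 members and 2.11% ± 0.0718 of the reads. The cytosolic glyceraldehyde-3-phosphate dehydrogenases GAPC1 (22397, 25086 and 22938 scaled reads) and GAPC2 (17404, 20117 and 16802) were both highest in replicate 2. The malate dehydrogenase c-NAD-MDH1 had 18244, 17686 and 15541, and the enolase LOS2 had 15293, 15448 and 15103. The glycolytic set also held the aldolase FBA8 (13133 ± 818), the triose phosphate isomerase TPI (9637 ± 544) and the phosphoglycerate kinase PGK (8543 ± 177). Only 9 of the 18 stayed among the 200 highest genes per kilobase.

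Proton pumps and ATP synthesis gave 12 members and 1.25% ± 0.0775 of the reads. HA2, the main plasma membrane proton pump of the root, had 30612, 32005 and 23003 scaled reads, and replicate 3 was below the other two. Its relative HA1 had 8599, 9131 and 8363. Per kilobase HA2 stood at 1499 TPM ± 222 and HA1 at 370 TPM ± 15.3. AAC1, the carrier that trades ATP for ADP across the inner mitochondrial membrane, had 19047, 19425 and 18128, and the vacuolar pump subunit VHA-A had 6881 ± 603.

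Aquaporins, the water channels of plasma membrane and vacuole, gave 9 members and 1.15% ± 0.0681 of the reads, out of 37 aquaporin rows in the table (24.3% of them). The vacuolar channels GAMMA-TIP (18208, 16584 and 14592 scaled reads) and TIP2 (16855, 15136 and 13879) came first, at 2586 TPM ± 211 and 2304 TPM ± 160. Both were highest in replicate 1 and lowest in replicate 3. Of the plasma membrane channels, PIP2A had 14720, 15389 and 14857, PIP1A 12714, 11767 and 9933, and PIP1B 10269, 11559 and 10113. All 9 were among the 200 highest genes per kilobase, and 8 of the 9 were lowest in replicate 3, or 7 with library totals. Of all members, 61.5% were lowest there, or 54.0% with library totals.

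The methionine and S-adenosylmethionine cycle, which supplies methyl groups and the precursor of ethylene and polyamines, gave 8 members and 1.06% ± 0.0806 of the reads. The methionine synthase ATMS1 had 21605, 24473 and 26005 scaled reads, and HOG1, which hydrolyses S-adenosylhomocysteine, had 19596, 20129 and 21692. Both were highest in replicate 3. The S-adenosylmethionine synthetases MAT3 (9287 ± 478), SAM1 (7249 ± 187), MTO3 (6570 ± 122) and SAM-2 (5188 ± 236) were members too. On the deposited scaling 3 of the 8 were highest in replicate 3. With library totals 6 were, and on that scaling 48.8% of all genes with 10 or more reads in every library were highest there.

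Nitrogen and amino acid metabolism gave 8 members and 1.04% ± 0.162 of the reads. GSR2 (AT1G66200), the cytosolic glutamine synthetase GLN1;2 that fixes ammonium into glutamine, held rank 3 with 40401, 45077 and 25215 scaled reads. Replicate 3 stood far below the other two, and the highest value was 1.79 times the lowest. The glutamate synthase GLT1, the next step of the cycle, had 12848, 16766 and 13195, and the second glutamine synthetase on the list, GSR 1 (AT5G37600), had 6683, 6518 and 4639. The nitrate reductase NIA2 had 5991, 7073 and 6138.

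Membrane transporters gave 9 members with 0.629% ± 0.0596 of the reads, and 8 of the 9 were lowest in replicate 3, against 61.5% of all members. The class included the nitrate transporters NRT1.1 (4867, 5620 and 3464 scaled reads) and NRT1.5 (6921, 5747 and 6627), the phosphate transporter PHT1;1 (6411, 6704 and 4525) and the sulfate transporter SULTR1;2 (4641, 5858 and 4139). PHT1;1 shares 42.4% of its 50-base words with other genes, chiefly PHT1;2, so the split of reads between them is uncertain. The transporter ABCG37 had the lowest level per kilobase of all members, at 208 TPM ± 21.0, which is rank 864 on that scale.

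Proteases, protease inhibitors and ubiquitin gave 15 members and 1.81% ± 0.161 of the reads. The polyubiquitin UBQ10, often used as a reference gene, had 21179, 17744 and 15653 scaled reads, a ratio of 1.35 between the highest and the lowest. UBQ11, by contrast, had 4954, 4880 and 4925. The papain-type proteases RD19 (17379, 15030 and 11855) and RD21A (13039, 12274 and 8594) were lowest in replicate 3. So were 12 of the 15 members of the class, against 61.5% of all members. DR4, annotated as drought-repressed, was highest there (15042, 14088 and 16758).

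Stress and pathogenesis proteins gave 12 members and 1.40% ± 0.0642 of the reads. The major latex protein-like gene MLP34 had 23112, 22144 and 18496 scaled reads. AT4G23670, of the polyketide cyclase and lipid transport superfamily, had 15832, 15060 and 18786, with replicate 3 the highest. The dehydrins, which are hydrophilic proteins linked to drought and cold, were represented by AT1G54410 (14058 ± 2233), COR47 (9430 ± 1381) and ERD14 (6459 ± 953). MLP328 and MLP329 lie side by side on chromosome 2, with 10346 ± 747 and 8058 ± 1468.

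Lipid and oxylipin genes gave 7 members with 0.662% ± 0.0424 of the reads, led by the alpha-dioxygenase DOX1 (25747, 23694 and 19577 scaled reads). Phenylpropanoid and flavonoid genes gave 6 with 0.512% ± 0.0283, among them CCoAOMT1 of lignin precursor synthesis (10263 ± 489), the phenylalanine ammonia-lyase PAL1 (6737 ± 1122) and the chalcone synthase TT4, which had 6879, 8488 and 9357. The cytoskeleton gave 6 with 0.436% ± 0.00161, including the actins ACT2 (7911 ± 785), ACT7 (5874 ± 524) and ACT8 (6601 ± 588). The metal-binding class gave 3 with 0.214% ± 0.00916, among them the metallothioneins MT2B (6506, 5514 and 7407) and MT1C (7239, 7332 and 4814). GRP9, a glycine-rich protein placed in no named class, had 20515, 16639 and 24554, and was second per kilobase.

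**Figure D3:**
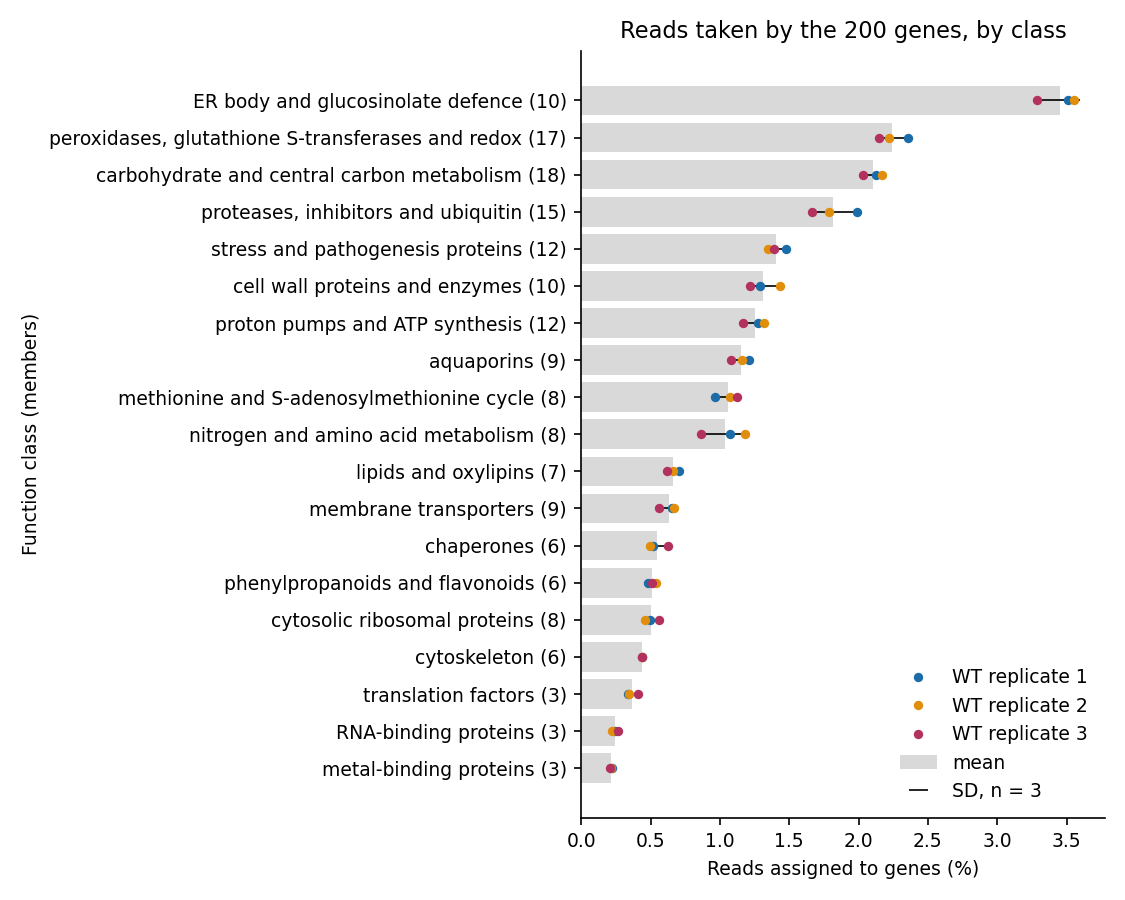
Share of the reads assigned to genes (%, horizontal axis) taken by the members of each named function class (vertical axis, number of members in brackets), with the mean as a bar from 0, the SD over 3 WT replicates as a line and each replicate as a point. The 10 genes of ER bodies and glucosinolate defence took 3.29% to 3.56%, and the next class, with 17 redox genes, 2.15% to 2.36%. PYK10 alone held 1.70% on average, and the classes were assigned by hand after the members were seen.

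In the members for ribosomal proteins and translation factors, and in 5 of 6 chaperones, replicate 3 was the highest, on the deposited scaling and with library totals. The 8 cytosolic ribosomal protein members took 0.497%, 0.458% and 0.562% of the reads in replicates 1, 2 and 3, and all 8 were highest in replicate 3 and lowest in replicate 2. Of them RP1 had 6678, 6000 and 7051 scaled reads and AT5G20290, with the promoter shown above, had 6527, 5839 and 6989. The 3 translation factors were highest there too, with 11657, 12865 and 14769 for AT5G60390, an elongation factor 1-alpha. Of the 340 ribosomal protein genes by name with 10 or more reads in every library, 60.6% were above both other replicates in replicate 3 and 15% below both, or 75.6% and 7.94% with library totals. Over all 18231 genes with that many reads, replicate 3 was above both in 39.4% and below both in 36.3%. With library totals these shares were 48.8% and 28.7%. Among all 200 members replicate 3 was the highest in 24.0%, or 33.0% with library totals. LOS1, the elongation factor that moves the ribosome along, had 11437, 11524 and 12844. Its product name places it among the 340 as well, so that set is not of ribosomal proteins alone.

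Among the chaperones, HSC70-1 (15491, 14443 and 18755), the HSP90 gene HSP81-2 (4112, 3623 and 5680), the endoplasmic reticulum HSP90 SHD (5603, 5701 and 7088) and BIP1 (4477, 4520 and 5825) were each above both other replicates in replicate 3. Their median was 0.35 higher on the log2 scale than the mean of replicates 1 and 2. The cyclophilin ROC5 had 7926, 7821 and 7938, and ROC3 was lowest in replicate 3 (6733, 6359 and 5770). HSP81-2 shares 18.3% of its 50-base words with other genes and BIP1 shares 22.9% with BIP2, so their counts carry that uncertainty.

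Over all members the difference of replicate 3 had the opposite sign. The median log2 difference of replicate 3 from the mean of the other two was -0.156 over the members and 0.0133 over all such genes on the deposited scaling. With library totals as the scaling these medians were -0.0918 and 0.0783, and all 8 ribosomal protein members stood above both other replicates. The 9 class III peroxidases had a median of -0.419, with 6 below both other replicates and 3 above. Replicate 3 is also the library with the most reads. Whether its depth, its plants or its handling moved with these values was not tested.

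**Figure D4:**
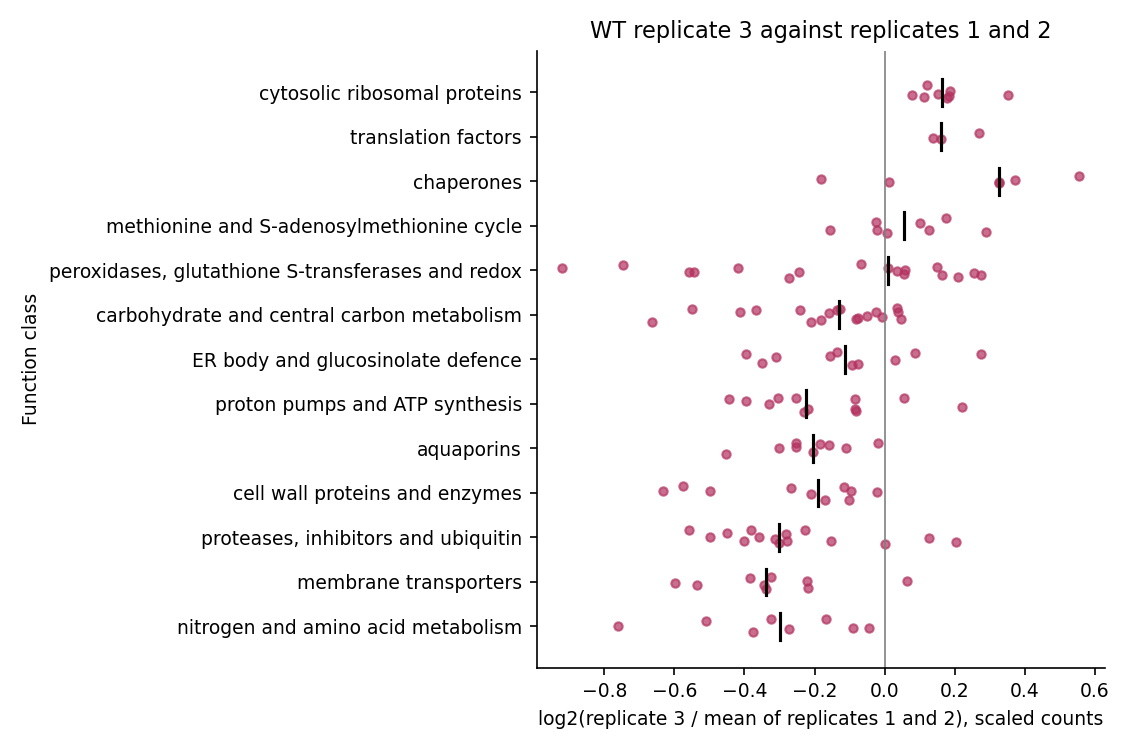
Log2 ratio of the scaled count in WT replicate 3 to the mean of WT replicates 1 and 2 (horizontal axis) for each member of 13 function classes (vertical axis), with 1 point per gene and a bar at the class median. All 8 ribosomal protein genes lie right of 0, and 8 of 9 aquaporins lie below both other replicates, as do 61.5% of all members. Points are shifted vertically at random so that they do not hide each other.

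The median coefficient of variation (CV, the SD over the mean of 3 replicates) of the members was 9.88%, and counting error alone would give 1.24%. For the 18231 genes with 10 or more reads in every library the median CV was 11.3%, with 7.74% from counting. The highest replicate was over 1.5 times the lowest in 18 members (9.0%), against 18.6% of all such genes, and over 2 times in 2 members (1.0%), against 3.75%. Genes with few reads are part of that background. Among ranks 201 to 1000, the genes nearest in abundance, the median CV was 8.49% and 7.75% passed 1.5 times, both below the members' values. Without replicate 3, and with 2 replicates left, the median CV of the 200 was 4.66% and 1 gene passed 1.5 times. The correlation of log2 counts across the 200 members, a description over genes that share libraries, was 0.974 between replicates 1 and 2, 0.935 between 1 and 3 and 0.941 between 2 and 3. The median per-gene biological coefficient of variation estimated by edgeR was 0.123 over the 18231 genes and 0.12 over the members. These estimates are drawn towards a trend over all genes, whose median was 0.125 in both sets. Their closeness is thus no separate measure of how alike the spreads are.

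The most variable member by the ratio of highest to lowest was AT2G37130, a class III peroxidase, with 17794, 14007 and 8409 scaled reads and a ratio of 2.12. DIN10, a dark-induced gene of raffinose metabolism, came second with 9036, 4666 and 4324 and a ratio of 2.09. In each of the 10 most variable, the replicate across the wider log2 gap was taken as the one set apart. DIN10 was the one in which that was replicate 1, above both others, although its lowest value was in replicate 3. LCR69, a small cysteine-rich protein, was the one in which replicate 2 was set apart, below both others (5311, 3948 and 6472). In the other 8, replicate 3 was set apart as the low one. They were GSR2, the peroxidases AT2G37130, AT5G17820 (8355, 8160 and 4923) and AT5G64100, the extensin-type genes AT3G54580 (9207, 11837 and 6786) and AT3G28550 (8106, 9645 and 5951), the transporter NRT1.1 and AT5G44020 (6185, 5633 and 3549).

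The steadiest members were ROC5, UBQ11, GSTF8, LOS2 and EXT4, with ratios of highest to lowest from 1.01 to 1.03. GSTF8 had 9948, 9787 and 9928 scaled reads. Their CVs, from 0.749% to 1.50%, were of the size that counting error gives for such counts, 0.823% to 1.45%. They are the smallest of 200 such ratios and were chosen as such.

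Exon length shapes which genes are on the list. Ranked by TPM instead of reads, 147 of the 200 (73.5%) stayed among the first 200, and the median exon length of the list was 1338 bases in place of 1746.5. By product name, cytosolic ribosomal proteins numbered 23 of the 200 per kilobase and 9 by reads, and transporters 1 and 6. Both ribosomal counts include LOS1, whose product name begins with ribosomal protein S5 and which is classed above as a translation factor. All 379 rows named as ribosomal proteins together took 4.33% ± 0.364 of the reads. The short genes MT2B (2213 TPM ± 371), MT1C (2172 ± 431) and LCR68 (2336 ± 190) were in the first 20 per kilobase, though they ranked 110, 112 and 77 by reads. GLT1, with the longest exon length of the members (7625 bases), ranked 38 by reads and 416 per kilobase.

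**Figure D5:**
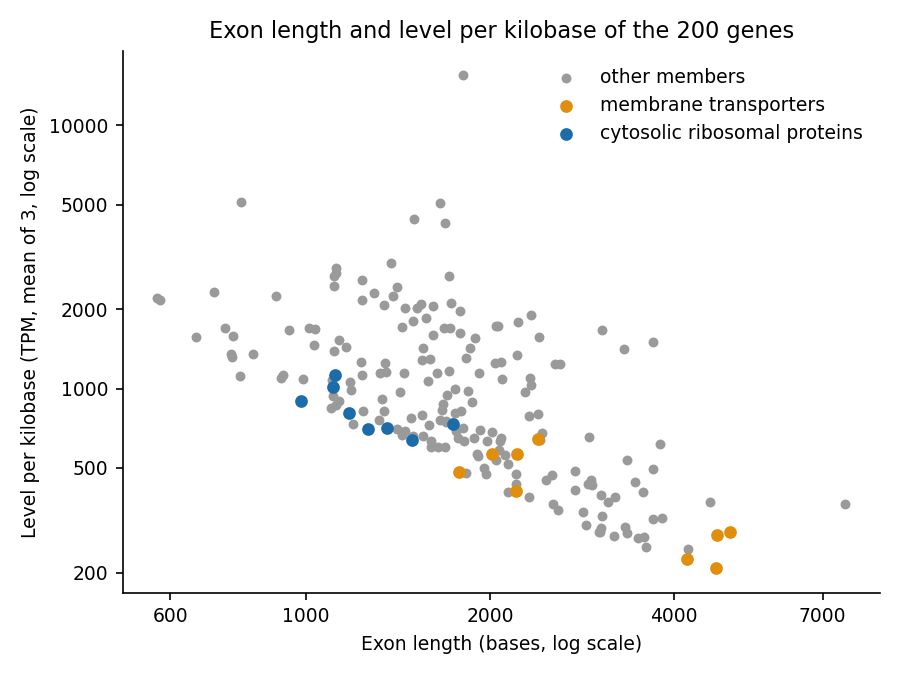
Level per kilobase (TPM, mean of 3 WT replicates, vertical axis, log scale) against exon length (bases, horizontal axis, log scale), 1 point per member, with ribosomal protein genes in blue and membrane transporters in orange. The empty lower left corner follows from the choice by reads; the transporters lie at 208 to 644 TPM and the ribosomal protein genes at 641 to 1126 TPM.

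Some members share their place in the genome with another gene. Of the 200, 38 overlap an annotated gene, 7 with a partner on the same strand and 32 with one on the opposite strand. AT1G17860, a Kunitz-type inhibitor, shares 99.4% of its 50-base words with other annotated genes, mainly AT1G05347 on the opposite strand, and still had 7345, 6983 and 5069 scaled reads, while AT1G05347 had 1.09, 1.10 and 3.66. CYP81F4 shares 85.1% with the opposite-strand gene AT4G37409, which had 9.77, 5.51 and 13.7. Reads of the 2 strands were thus kept apart in the deposited counts of these pairs, and per the labels the libraries were made with a stranded kit.

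On the same strand the counts cannot separate nested genes. AT1G07590, at rank 13 with 21745, 21278 and 15263 scaled reads, spans chromosome 1 from 2336477 to 2339391 on the minus strand (TAIR10.1). Inside it lies MT1A (2338904 to 2339321), a metallothionein gene whose 138 annotated exon bases all overlap exons of AT1G07590, and MT1A was listed with 0 reads in all 3 libraries. The rank of AT1G07590 and the 0 of MT1A are uncertain, because reads of the pair cannot be told apart. GSTF8 likewise covers all 219 exon bases of AT2G47720, which was listed at 0 in each library. Over all members, 67 share a 50-base word with another gene, 20 share over 10% of them and 2, AT1G17860 and CYP81F4, over 50%. These counts take in genes that overlap at the same locus as well as copies elsewhere.

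Members lie on all 5 chromosomes, 53 on chromosome 1, 34 on chromosome 2, 42 on chromosome 3, 32 on chromosome 4 and 39 on chromosome 5. Close neighbours, at most 5 genes apart in the annotation, form 13 runs with 28 members, and the stretch from NSP1 to JAL34 is the one with 4. The median exon length of the members, 1746.5 bases, was near that of coding genes with reads in all 3 libraries (1762). Single-exon genes were 4.5% of the members, 6.38% of ranks 201 to 1000 and 14.4% of those coding genes.

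For the members as a whole, the shares of promoters with these motifs lay near those of all genes. In the window of 300 bases from 250 before to 50 after the start, both strands searched, 53 members (26.5%) held site II and 11 (5.5%) the telo box, against 21.7% and 6.22% of all 27443 coding promoters, and 24.9% and 5.43% of those of genes with reads in all 3 libraries. TATAAA or TATATA on the sense strand, 50 to 20 bases before the start, was in 25 members (12.5%) and in 13.9% of all. Among the ribosomal protein members 8 of 8 held site II, 4 of 8 the telo box and 0 of 8 the TATA motif. Of 379 genes in the table with a ribosomal protein name, LOS1 among them, 63.3% held site II and 37.2% the telo box. The telo box count depends on the bases after the start, since 1 of the 8 held it with the search ended at the start. A match is a string of letters in the window and not a shown binding site.

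Markers were read to check the label of the tissue. Each of 9 root lists was detected in all 3 libraries, with 9 of 9 root hair genes, 10 of 10 endodermis genes, 7 of 7 xylem genes, 4 of 4 phloem genes, 4 of 4 root cap genes and 3 of 3 stem cell niche genes. The niche gene WOX5, which marks a few cells at the tip, had 6.51, 6.61 and 8.23 scaled reads. None of the markers was among the 200, and the one with the most reads, ESB1 of the endodermal Casparian strip, was at rank 428 with 2649 ± 485. Per kilobase CASP1, which also builds that strip, was the highest, at 435 TPM. The summed root hair list was 7072, 7708 and 4852 scaled reads in replicates 1, 2 and 3, lowest in replicate 3, as were 123 of the 200 members. The endodermis list (9549, 9257 and 7892) and the non-hair epidermis list (291, 249 and 227) were lowest there too. The root cap list (144, 150 and 132) was lowest in replicate 3 as well, and the stem cell niche list (93.4, 76.0 and 78.6) was highest in replicate 1. The phloem (1618, 1524 and 2010), pericycle (2458, 2738 and 2868) and xylem (4246, 3742 and 4392) lists were highest in replicate 3. So was the cortex list, of 1 gene (22.8, 15.4 and 25.6). Not every gene followed its sum. In the phloem, pericycle and xylem lists SKOR was lowest in replicate 3, SUC2, CESA4 and XCP2 were highest in replicate 1, and the other genes were highest in replicate 3. WOX5 of the niche list and SMB of the root cap list were highest in replicate 3. In the endodermis list GPAT5 and CYP86A1 were highest in replicate 3, and SCR and MYB36 were lowest in replicate 1. TTG2 of the non-hair list was also lowest in replicate 1. In bulk samples fewer cells of a type and less RNA per cell cannot be told apart, and the part of these cell types in the members' values was not tested. The gene AGL12, which is XAL1, had 264, 250 and 269 scaled reads and ranked 6849.

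Lists of other organs were mostly low, apart from the photosynthesis list. Of the shoot meristem and stomata list, STM, WUS, CLV3, MUTE and FMA had 0 reads, which allows a share of up to 3.88e-05% of the shallowest library, and SPCH had reads in replicate 2 alone. Of the 9 seed storage genes, 7 had 0 reads. Of 5 floral genes, AP1 and AG had 0 reads and PI had 23.7 scaled reads ± 6.79. Photosynthesis genes were present, with reads in all 3 libraries for 17 of 19 and sums of 7253, 6439 and 8667 scaled reads, highest in replicate 3. Their top gene, LHCA4, ranked 1298 with 1217 ± 190. The mean sum of the photosynthesis list, 7453, was above that of every root list but the endodermis list (8899). The root hair list had 6544. The lists differ in length, with 19 photosynthesis genes against 9 for root hairs and 10 for the endodermis. The part of these green-tissue genes in the members' values was not tested.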

How the data were processed

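RNA of 3 wild-type and 3 xal1-2 root samples was sequenced from stranded, paired-end mRNA libraries, per the labels' protocols. The submitters' processing notes name FastQC 0.11.9, Trimmomatic 0.39, Subread 2.0.1, DESeq2 and the build TAIR10; how strand and multiply mapped reads were treated is not stated there. The deposited signal values, 1 column per library, are gene counts that the authors divided by a size factor (scaled reads). The authors' deposited log2 fold changes, score (test statistic) and p-value columns, which compare with the mutant, were not used, nor were the mutant's columns.

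Size factors were recovered from the steps between low values, after which 100.0% of a library's values were whole numbers of reads (tolerance 0.001). Shares use recovered reads; 95% intervals are exact binomial. TPM was computed from recovered reads and the merged exon length of RefSeq TAIR10.1, whose table matched 32548 identifiers; the 285 not matched are organelle genes with 169, 170 and 230 reads. Coordinates and sequences are of TAIR10.1. The biological coefficient of variation came from edgeR 4.0.16 (R 4.3.3), an intercept-only fit on recovered reads, after a run on simulated counts. The rest used Python 3.11.15, numpy 2.4.6, pandas 2.3.3 and scipy 1.17.1.

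The report describes 1 group, so no test was made and no p-value computed. Members and gene lists were chosen with earlier results of these data known, and the function classes were assigned by hand after the members were seen. Genes were named by a rule: the 20 highest means, 3 on each side of rank 200, the 10 most and 5 least variable members, the 10 highest per kilobase, up to 4 per class, and markers. Names beyond it (further class members, overlapping partners, copies) were chosen after their values were seen. Alternatives were library totals, TMM, the median, per-kilobase ranking, other list lengths, no organelle genes, each replicate left out, other motif searches and other detection limits.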

Additional observations from a re-analysis of the deposited data

How the results depend on the processing

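Library totals, TMM factors and the removal of organelle genes selected the same 200 genes, so the share of reads, 23.8%, could not move with them. Ranking by the median shared 195 genes and gave 23.7%. Ranking per kilobase gave 22.0%, 100 genes 17.2% and 500 genes 34.9%. With each replicate left out the share ran from 23.5% to 24.2%. The median CV of 9.88% ran from 4.66% (without replicate 3) to 11% with each replicate left out. The count of members over 1.5 times between highest and lowest, 18, became 13 with library totals and 19 with TMM, ran from 1 (without replicate 3) to 11 (without replicate 1 or 2), and was 2 at a limit of 2 times. Fewer replicates make a smaller range by construction. The telo box was in 7 members on the plus strand alone and in 6 before the start alone, in place of 11, and site II in 35 on the plus strand in place of 53. By product name, the classes that moved per kilobase were ribosomal proteins (9 to 23), cell wall (12 to 6), lipid transfer (1 to 4), glycolysis (14 to 8), transporters (6 to 1) and RNA-binding (1 to 0). Assigning classes by hand, chosen after seeing the data, raised the ER body class from 5 to 10. Genes with reads in all 3 libraries, 20981, were 18231 at 10 reads in each and 23537 at reads in any. No paired analysis was possible because 1 group was described and no test was made.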
